A study of Mus musculus with 15 samples.

Results

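Neutrophils carry a store of ready-made proteins in granules, and 10 genes for proteins of the secondary (specific) and tertiary (gelatinase) granules were measured in mouse blood: Lcn2, Ltf, Camp, Ngp, Olfm4, Mmp8, Cd177, Mmp9, Mmp25 and Chil3. They were taken by gene symbol, and 10 of 10 were found among the 55416 gene identifiers counted in each library. Blood came from C57BL/6 mice with 4MOSC1 tumors, which are grown from a mouse oral squamous cell carcinoma line placed in the tongue. The untreated group received neither antibody nor surgery. The early ND group received 2 doses of αCTLA-4, an antibody against the T cell checkpoint receptor CTLA-4, and then neck dissection (ND, the surgical removal of the lymph nodes that drain the tongue) on day 6 after implantation. The late ND group received the same 2 doses and ND on day 11. For all 3 groups the labels give 10 days of tumor growth, and the methods give females of 4 to 6 weeks of age. The sources differ on whether late ND mice were bled before or after surgery, so "late ND" below is the name of a group. The sources used here describe the tumors of the untreated mice only through these shared labels. The labels number 5 replicates per group and state the blood taken from each animal (100 μL or more), so each library was taken as 1 mouse.

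Gene counts per library ran from 5862888 to 10796099 in untreated mice, from 5527108 to 7182346 after early ND and from 7849602 to 13924361 in late ND mice. The 18S ribosomal gene Rn18s-rs5 was scarce in untreated 2 (766 CPM of the library total), late 2 (313) and late 3 (521), and no other library had less than 13402. Values below are therefore also given without these 3 libraries where a call rests on them. The blood label was checked against 10 mature neutrophil markers, and each had at least 16 counts in every library. The most abundant of them on average, S100a9, ranged from 758 to 5400 CPM after normalization by the trimmed mean of M values (TMM). Hemoglobin genes took 31.6% to 61.7% of gene counts in untreated mice, 38.3% to 64.1% after early ND and 14.9% to 29.3% in late ND mice.

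Granule proteins are made in waves as neutrophils mature in the bone marrow. Primary granules fill first with myeloperoxidase and serine proteases, secondary granules follow with lactoferrin, lipocalin and the cathelicidin peptide, and gelatinase granules come last, so that circulating neutrophils keep little message for the earliest proteins. C/EBP factors, above all C/EBPε, and PU.1 are known regulators of these genes. The contents bind iron or its carriers (Ltf, Lcn2), kill microbes (Camp, Ngp), cut collagen and other matrix proteins (Mmp8, Mmp9, Mmp25) and take part in adhesion and migration (Cd177).

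Promoters, from 250 bases before to 50 bases after the gene start, were taken from a working set based on RefSeq (GRCm38.p6). This set held 9 of the 10 genes, and Mmp9 was not in it. Of the 9 promoters, 6 are shown: Ltf (chr9:111019042-111019341, plus strand), Camp (chr9:109849407-109849706, minus strand), Ngp (chr9:110419558-110419857, plus strand), Mmp8 (chr9:7558179-7558478, plus strand), Cd177 (chr7:24760262-24760561, minus strand) and Chil3 (chr3:106167515-106167814, minus strand). Those of Lcn2, Olfm4 and Mmp25 were searched in the same way and are not shown. Capitals mark the C/EBP motif TTGCNNAA and the PU.1 motif GAGGAA, each searched on both strands, and no match of one overlapped a match of the other.
Ltf: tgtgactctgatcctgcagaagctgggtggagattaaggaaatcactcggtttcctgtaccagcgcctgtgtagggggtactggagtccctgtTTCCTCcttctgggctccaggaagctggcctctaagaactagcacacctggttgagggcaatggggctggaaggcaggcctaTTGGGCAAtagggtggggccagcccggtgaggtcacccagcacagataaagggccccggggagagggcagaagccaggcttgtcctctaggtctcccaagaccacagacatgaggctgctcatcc
Camp: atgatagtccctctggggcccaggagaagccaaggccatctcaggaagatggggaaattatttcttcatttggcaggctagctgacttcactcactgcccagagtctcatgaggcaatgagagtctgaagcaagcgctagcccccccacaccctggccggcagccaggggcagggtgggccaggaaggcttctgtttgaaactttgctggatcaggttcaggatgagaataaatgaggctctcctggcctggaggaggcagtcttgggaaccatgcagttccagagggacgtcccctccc
Ngp: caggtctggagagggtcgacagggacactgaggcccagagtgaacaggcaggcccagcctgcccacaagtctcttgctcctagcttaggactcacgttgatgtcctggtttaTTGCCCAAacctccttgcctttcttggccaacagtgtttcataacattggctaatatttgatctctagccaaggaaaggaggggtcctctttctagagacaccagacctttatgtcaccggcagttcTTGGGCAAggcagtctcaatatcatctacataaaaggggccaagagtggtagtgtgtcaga
Mmp8: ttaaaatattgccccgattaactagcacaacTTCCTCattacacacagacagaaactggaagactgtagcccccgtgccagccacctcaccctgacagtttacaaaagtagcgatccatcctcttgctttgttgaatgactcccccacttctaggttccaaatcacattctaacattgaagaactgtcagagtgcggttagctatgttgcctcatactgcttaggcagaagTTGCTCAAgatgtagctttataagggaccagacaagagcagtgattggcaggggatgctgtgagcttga
Cd177: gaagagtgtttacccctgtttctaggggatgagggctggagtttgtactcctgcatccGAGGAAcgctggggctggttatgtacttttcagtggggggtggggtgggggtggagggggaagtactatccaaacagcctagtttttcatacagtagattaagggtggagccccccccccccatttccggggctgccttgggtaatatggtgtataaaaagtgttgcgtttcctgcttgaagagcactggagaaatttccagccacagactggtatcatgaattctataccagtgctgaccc
Chil3: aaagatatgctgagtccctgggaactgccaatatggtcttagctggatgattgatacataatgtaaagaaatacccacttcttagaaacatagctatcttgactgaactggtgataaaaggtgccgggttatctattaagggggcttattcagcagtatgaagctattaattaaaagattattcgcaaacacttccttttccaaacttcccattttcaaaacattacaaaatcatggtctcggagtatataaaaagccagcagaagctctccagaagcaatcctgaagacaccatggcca
The C/EBP motif was present in 4 of the 9 promoters (Lcn2, Ltf, Ngp and Mmp8) and in 3547 of 32851 promoters in the set (10.8%). The PU.1 motif was present in 6 of 9 (Lcn2, Ltf, Mmp8, Olfm4, Cd177 and Mmp25) and in 9289 of 32851 (28.3%). Camp and Chil3 held neither set of letters in this window. A match describes letters only, and binding was not measured.

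Levels differed widely between the genes. Per kilobase of exon, Chil3 was the most abundant in untreated blood at 188 ± 89.7 CPM per kb (SD, n = 5), followed by Mmp8 at 158 ± 74.9, Lcn2 at 132 ± 54.9 and Mmp9 at 104 ± 27.5. The next were Ngp at 24.2 ± 20.0 CPM per kb and Cd177 at 21.9 ± 11.97. The lowest were Mmp25 at 5.25 ± 1.83, Camp at 5.03 ± 4.18, Ltf at 3.04 ± 2.45 and Olfm4 at 2.77 ± 0.897 CPM per kb. Neighbors within each of these sets of genes lay within their spread. In late ND mice, Chil3 stood at 506 ± 72.1 CPM per kb (SD, n = 5), and Mmp8, Lcn2 and Mmp9 followed in the same order at 239 ± 125, 183 ± 68.5 and 144 ± 51.01. After early ND, Chil3 stood at 267 ± 150 CPM per kb (SD, n = 5). The order below it differed there, with Mmp8 at 68.4 ± 42.6, Mmp9 at 67.1 ± 26.6 and Lcn2 at 65.3 ± 47.1, all within their spread. Camp had as few as 4 counts and Ltf and Olfm4 as few as 5 in a library, so their values are the least precise.

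**Figure D1:**
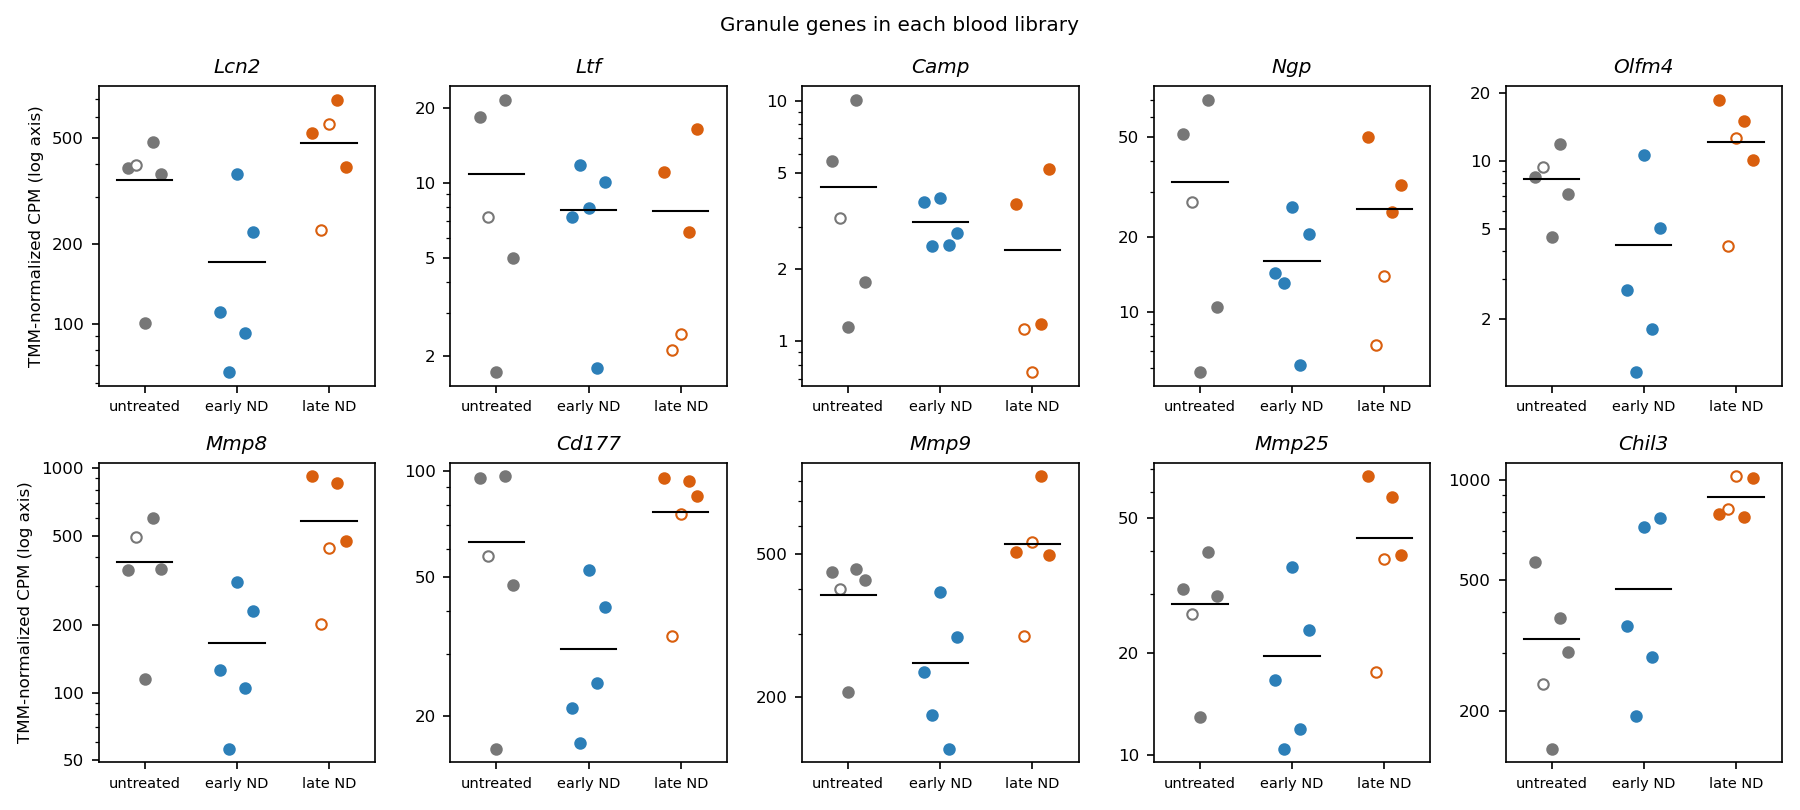
TMM-normalized CPM of the 10 granule genes (log axis) in each of the 15 libraries, with a bar at the group mean. Open circles are the 3 libraries poor in Rn18s-rs5. All 5 late ND values of Chil3 lie above every value of the other groups, while those of every other granule gene overlap with both groups.

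The late and early ND groups were compared first. Mmp8, the neutrophil collagenase, and Cd177, a surface glycoprotein that binds Pecam1 and is stored in secondary granules, were higher in late ND mice. Mmp8 (ENSMUSG00000005800, chr9:7558457-7568487 of GRCm39) had 922, 203, 440.1, 863 and 471 CPM in late ND mice 1 to 5 and 126, 56.2, 311, 104 and 232 CPM in early ND mice 1 to 5. In untreated mice it had 353, 493, 115, 599 and 354 CPM. The groups overlapped through late 2, which lay below early 3 and early 5, and the other 4 late ND mice were above every early ND mouse. The log2 fold change was 1.81 ± 0.48 (SE, 95% interval 0.77 to 2.84, adjusted p = 0.0496 by edgeR's quasi-likelihood test, Benjamini-Hochberg over 13315 genes). Cd177 (ENSMUSG00000052212, chr7:24443408-24459747) had 95.4, 33.8, 75.3, 93.9 and 85.0 CPM in late ND mice and 21.0, 16.7, 52.1, 24.9 and 40.8 CPM in early ND mice. Again 4 of 5 late ND mice were above every early ND mouse, with late 2 below early 3 and early 5. Its log2 fold change was 1.31 ± 0.33 (SE, 95% interval 0.58 to 2.03, adjusted p = 0.0454 by the same edgeR quasi-likelihood test). These were the 2 of 10 granule genes called higher, beside 2.5% of all genes tested. At an unadjusted p under 0.05, 7 of 10 were higher, beside 14.4% of all genes, and the median log2 fold change of the 10 was 1.12 against 0.01 for all genes. Mouse blood is a mixture, so more cells of a type and more RNA per cell cannot be told apart here.

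Both calls sat close to the threshold. With the 3 libraries poor in Rn18s-rs5 left out, 0 of 10 granule genes and 4 genes in all passed the edgeR quasi-likelihood test, at log2 fold changes of 2.18 for Mmp8 (adjusted p = 0.0557) and 1.55 for Cd177 (adjusted p = 0.0509), and 7 of 10 granule genes, beside 1732 of 13440 genes in all, were higher at an unadjusted p under 0.05. With hemoglobin genes and Rn18s-rs5 left out of the counts, Cd177 passed at 1.30 (adjusted p = 0.0476) and Mmp8 did not at 1.80 (adjusted p = 0.0514, edgeR quasi-likelihood test). Over all alternatives, the adjusted p of the edgeR and DESeq2 tests ran from 4.84e-05 to 0.565 for Mmp8 and from 4.84e-05 to 0.513 for Cd177, and the log2 fold changes ran from 0.51 to 2.55 and from 0.45 to 2.12. Both lowest values came with mature neutrophil markers as a covariate, which ended both calls. The mean of these markers was itself higher in late than in early ND mice, so this fit takes away part of the group difference. With all 15 libraries in 1 fit Cd177 did not pass (adjusted p = 0.0694, edgeR quasi-likelihood test). With late 1, 3, 4 or 5 or early 1, 2, 4 or 5 left out in turn, 0 granule genes and 145 to 561 genes in all were called, against 663 genes with all libraries. Without late 2 the calls were 5 granule genes and 822 in all, and without early 3 they were 7 and 1610. Early 3 also stood apart in skin gland genes, which summed to 659 CPM there and to 39.3 to 69.7 CPM in the other early ND mice. The same sum was high in untreated 5 (1219 CPM) and late 5 (789 CPM). Its part in the granule results was not tested. DESeq2 called 6 granule genes and 1449 in all. Of the exon bases of Mmp8, 10.84% lay opposite Gm31751, and the strand setting of the counting is not given in the sources used here, while 3.78% of 75-base windows of Cd177 also occurred in other genes.

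Lcn2 (lipocalin 2, which binds bacterial siderophores), the gelatinase Mmp9, the membrane-bound Mmp25 and Olfm4, a glycoprotein found in a subset of neutrophils, lay in the same direction without passing the adjusted threshold. Lcn2 had 520.5, 225, 565, 696 and 389 CPM in late ND mice, 111, 65.8, 365, 92.7 and 222 CPM in early ND mice and 386, 395, 101, 482 and 367 CPM in untreated mice. Mmp9 had 506, 296, 540.0, 823 and 496 CPM in late ND mice, 235, 178, 392, 144 and 294 CPM in early ND mice and 444, 399, 207, 453 and 423 CPM in untreated mice. For both genes early 3 was the highest of its group and late 2 the lowest of its group, and 4 of 5 late ND mice exceeded all early ND mice. The log2 fold change of late over early ND was 1.49 ± 0.45 for Lcn2 and 1.11 ± 0.30 for Mmp9 (SE, adjusted p = 0.0686 and 0.0520, edgeR quasi-likelihood test). Mmp25 ranged from 17.6 to 66.7 CPM in late ND mice and from 10.4 to 36.0 CPM after early ND, with a log2 fold change of 1.14 ± 0.38 (SE, adjusted p = 0.0920, edgeR quasi-likelihood test). Olfm4 ranged from 4.21 to 18.6 CPM and from 1.16 to 10.5 CPM, with a log2 fold change of 1.44 ± 0.51 (SE, adjusted p = 0.111, edgeR quasi-likelihood test).

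Ltf (lactoferrin), Camp (the cathelicidin precursor) and Ngp (a cystatin-related neutrophilic granule protein) lie on chromosome 9 of GRCm39, at chr9:110848339-110871835, chr9:109676442-109678685 and chr9:110248815-110252086. Ltf had 11.1, 2.12, 2.45, 6.35 and 16.4 CPM in late ND mice and 7.26, 11.8, 7.94, 1.80 and 10.0 CPM in early ND mice. In untreated mice it had 18.5, 7.31, 1.73, 21.6 and 4.998 CPM. Late 1 and late 5 were high and late 2 and late 3 low, and each pair of groups overlapped. Camp ran from 0.745 to 5.24 CPM in late ND mice and from 2.48 to 3.97 CPM after early ND, and Ngp from 7.37 to 49.9 CPM and from 6.13 to 26.1 CPM. The log2 fold changes of late over early ND were -0.07 ± 0.54 (95% interval -1.24 to 1.11) for Ltf, -0.42 ± 0.50 (-1.51 to 0.67) for Camp and 0.64 ± 0.46 (-0.35 to 1.63) for Ngp (SE, adjusted p = 0.965, 0.672 and 0.429, edgeR quasi-likelihood test). A p that misses the threshold does not show equal levels, and these intervals reach beyond a log2 fold change of 1 for Ltf and Ngp and beyond -1 for Ltf and Camp. When library totals replaced TMM, Ltf and Camp stood at 0.74 and 0.40. That scaling put the median of all genes at 0.86, above both, so these signs do not show a direction of their own. Without the 3 libraries poor in Rn18s-rs5, the signs of Ltf and Camp turned to 0.49 and 0.09.

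Chil3 encodes a chitinase-like protein (Ym1) that is held in neutrophil granules and is also made by macrophages and monocytes. Chil3 (ENSMUSG00000040809, chr3:106054870-106074880 of GRCm39) had 792, 820.4, 1028, 772 and 1018 CPM in late ND mice, 362, 194, 723, 291 and 769.8 CPM in early ND mice and 567, 241, 154, 383 and 303 CPM in untreated mice. It was the granule gene whose 5 late ND mice lay above all mice of both other groups, beside 2.98% of all genes for late above early ND and 2.5% for late ND above untreated. The late ND values were also the most even, with a coefficient of variation of 14.2% against 32.9% or more for the other genes of that group. Against untreated mice, the log2 fold change was 1.43 ± 0.29 (SE, 95% interval 0.80 to 2.06, adjusted p = 0.0261, edgeR quasi-likelihood test over 13547 genes), and Chil3 was the 1 of 10 called higher, beside 0.989% of all genes. Against early ND it was 0.94 ± 0.34 (SE, adjusted p = 0.122, edgeR quasi-likelihood test). The gap between late 4, at 772 CPM, and early 5, at 769.8 CPM, was narrow.

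Without the 3 libraries poor in Rn18s-rs5, the log2 fold change of Chil3 over untreated was 1.28 and did not pass (adjusted p = 0.166, edgeR quasi-likelihood test, range over all alternatives 8.60e-06 to 0.166). It passed without untreated 1, 2 or 5 and did not pass without untreated 3 or 4 or without any 1 of the late ND mice, with adjusted p from 0.0261 to 0.0712 in edgeR's quasi-likelihood test. It also did not pass with all 15 libraries in 1 fit (adjusted p = 0.0503, edgeR quasi-likelihood test), and in all 9 of 19 alternatives did not pass. Of its 75-base windows, 10.37% also occurred in Chil4 or Gm6522, which had at most 1 and 26 counts in any library. Of 6 monocyte markers tested, 2 were called higher in late ND than in untreated mice, beside 0.989% of all genes: Ccr2 at a log2 fold change of 1.11 ± 0.18 and Csf1r at 0.73 ± 0.16 (SE, adjusted p = 0.0242 and 0.0322, edgeR quasi-likelihood test). The summed level of the 6 monocyte markers, of which F13a1 was the most abundant on average over all libraries, was 701, 531, 598, 926 and 634 CPM in untreated mice, 629, 535, 563, 772 and 1205 CPM in early ND mice and 1409, 1043, 895, 1409 and 1131 CPM in late ND mice, and no monocyte marker was at 0 in any library. The part of these markers in the Chil3 difference was not tested. Ccr2 was named after its values were seen.

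Chil3 aside, 0 of 9 granule genes were called between late ND and untreated mice (0 at an unadjusted p under 0.05 in edgeR's quasi-likelihood test, where 1177 of 13547 genes were higher and 1122 lower, and 0 with DESeq2), and the late ND libraries are shared with the comparison with early ND. The log2 fold change was 0.46 for Lcn2, 0.59 for Mmp8, 0.46 for Mmp9, 0.51 for Olfm4, 0.29 for Cd177 and 0.64 for Mmp25, and -0.50, -0.90 and -0.38 for Ltf, Camp and Ngp. The adjusted p of these 9 ranged from 0.357 to 0.824 by edgeR's quasi-likelihood test, 0 of 10 were called lower beside 2.01% of all genes (0 at an unadjusted p under 0.05 and 0 with DESeq2), and the median of the 10 was 0.46 against 0.00 for all genes. Without the 3 libraries poor in Rn18s-rs5, 0 of 10 passed, 4 of 10 were higher at an unadjusted p under 0.05, beside 956 of 13051 genes, and the median was 0.66. When library totals replaced TMM, which put the median of all genes at 0.91, 7 of 10 granule genes passed, beside 7574 genes in all.

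Early ND and untreated mice were compared next, to set the antibody with early surgery against no treatment. No gene passed edgeR's quasi-likelihood test (0% of 12151 genes, smallest adjusted p = 0.938), and 0 of 10 granule genes passed. At an unadjusted p under 0.05, 3 of 10 granule genes were lower (Mmp8, Mmp9 and Cd177), beside 2.33% of all genes, with 256 genes higher and 283 lower in all, and DESeq2 called 1 gene and 0 granule genes. Log2 fold changes were below 0 for 9 of 10, from -1.21 ± 0.47 (SE) for Mmp8 to -0.41 ± 0.54 (SE) for Ltf, and above 0 for Chil3 at 0.51 ± 0.41 (SE). The median was -0.78 against 0.00 for all genes. Chil3 was above every untreated mouse in 2 of 5 early ND mice, early 3 and early 5. The untreated mice are shared with the comparison of late ND with untreated, and the early ND mice with that of late with early ND.

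**Figure D2:**
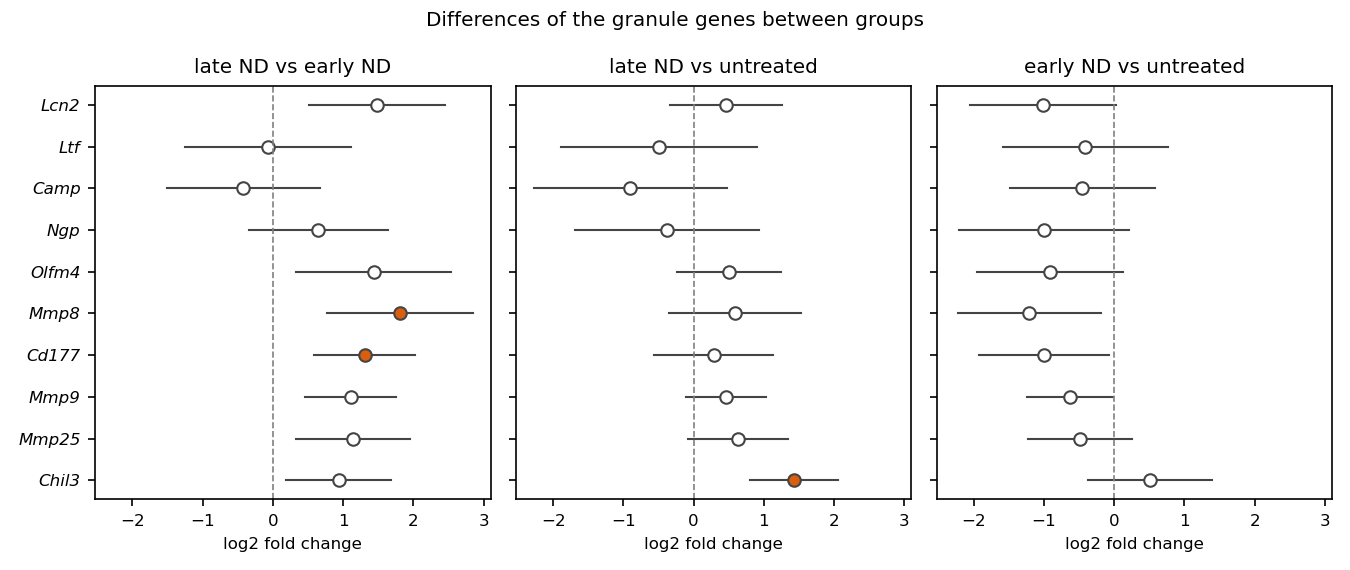
Log2 fold change of each granule gene in the 3 comparisons, with 95% intervals from edgeR's quasi-likelihood fit. Filled points have an adjusted p under 0.05: Mmp8 and Cd177 in late against early ND and Chil3 in late ND against untreated.

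The genes varied together within groups. Pearson's r of log2 CPM was computed over the 15 libraries after the mean of each group was removed, as a description of libraries that share depth and cell mixture. The 45 pairs ranged from 0.35 for Camp and Mmp9 to 0.96 for Mmp8 and Mmp25, with a median of 0.76. Mmp8 and Mmp25 had a Spearman rho of 0.98 and an r of 0.93 without the 2 libraries farthest from the median of Mmp8. A set formed by Lcn2, Mmp9, Mmp8, Mmp25, Olfm4 and Cd177 had values from 0.81 to 0.96 (rho 0.78 to 0.98, and 0.68 to 0.94 without the 2 farthest libraries). Ltf, Camp and Ngp formed another, with r of 0.91 for Ltf and Ngp, 0.84 for Camp and Ngp and 0.83 for Ltf and Camp (rho 0.88, 0.89 and 0.83, and r of 0.86, 0.84 and 0.86 without the 2 farthest libraries). Ngp was also close to Cd177 (r = 0.86, rho = 0.90, and r = 0.73 without the 2 farthest libraries). Among 9445 other genes that averaged 50 counts or more, those most like the mean of the 10 were Qsox1 (r = 0.96), Cd14 (0.96), Capns1 (0.94), Ly6g (0.94), App (0.93), Stim2 (0.92), Gm16192 (0.91), Wfdc21 (0.91), C4b (0.91) and Hdc (0.91), with rho from 0.83 to 0.94 and r from 0.82 to 0.93 without the 2 farthest libraries. Ly6g, a neutrophil surface antigen, is 1 of the 10 mature neutrophil markers.

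**Figure D3:**
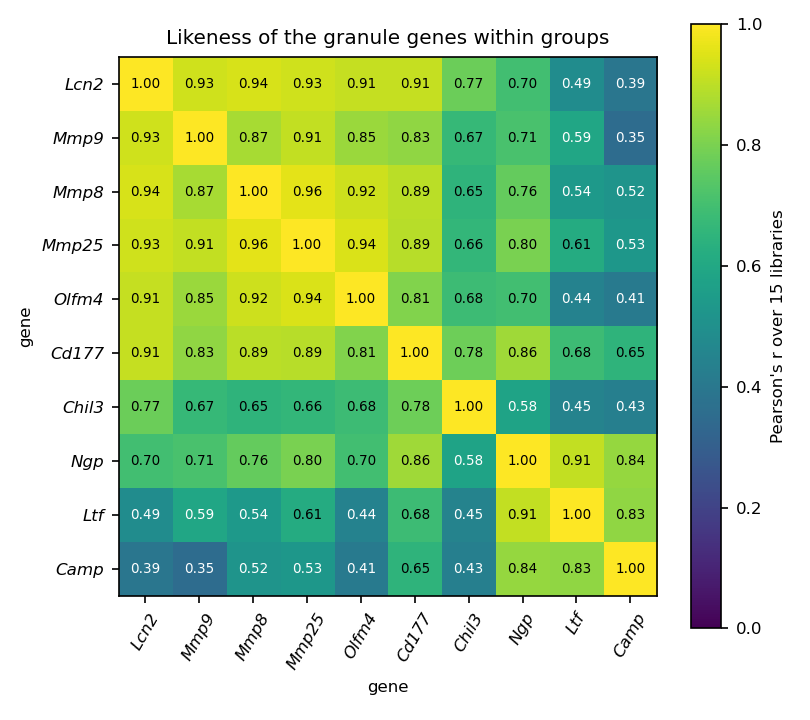
Pearson's r between granule genes over 15 libraries, from log2 CPM with group means removed. Values of 0.81 or more join Lcn2, Mmp9, Mmp8, Mmp25, Olfm4 and Cd177, and values of 0.83 or more join Ngp, Ltf and Camp.

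The 10 mature neutrophil markers were set beside the granule genes. Between late and early ND, 0 of 10 markers passed edgeR's quasi-likelihood test, 9 of 10 were higher at an unadjusted p under 0.05, beside 14.4% of all genes, and their median log2 fold change was 1.05, where that of the granule genes was 1.12. Between early ND and untreated, 0 of 10 markers passed the same edgeR test, 6 of 10 were lower at an unadjusted p under 0.05, beside 2.33% of all genes, and their median was -0.84. Their summed level was 10621, 6335, 12182, 15779 and 7757 CPM in late ND mice, 4314, 2938, 8055, 3749 and 7351 CPM in early ND mice and 8358, 11854, 5235, 12141 and 9932 CPM in untreated mice, and no marker was at 0. Early 3 and late 4 were the highest of their groups in this sum, and late 2 and early 2 the lowest. With the mean log2 CPM of the 10 markers as a covariate, 0 granule genes and 0 genes in all were called between late and early ND, with log2 fold changes of 0.51 for Mmp8, 0.45 for Cd177 and 0.36 for Chil3 (adjusted p = 0.565, 0.513 and 0.728, edgeR quasi-likelihood test). The marker mean itself differed between these groups, at 8.78 ± 0.52 in late ND and 7.75 ± 0.68 in early ND mice (SD, n = 5). This fit therefore takes away part of the group difference and cannot show what that difference rests on. Between late ND and untreated, where the median log2 fold change of the markers was 0.16, the log2 fold change of Chil3 with this covariate was 1.42 (adjusted p = 0.0495, edgeR quasi-likelihood test). Set against the mean log2 CPM of the 10 markers in the same library, Chil3 lay at -0.38 ± 0.69 in untreated mice, 0.92 ± 0.23 after early ND and 1.00 ± 0.59 in late ND mice (SD, n = 5). Among untreated mice, mouse 1, at 0.76, lay within the range of the early ND mice (0.63 to 1.27), and the other 4 lay below it. Late ND overlapped with both groups: late 4, at 0.14, lay below untreated 1 and every early ND mouse. Late 1, at 0.760, was barely above untreated 1, at 0.755. Lcn2 lay at -0.35 ± 0.52, -0.62 ± 0.34 and 0.02 ± 0.18 in the same order, and Camp at -6.79 ± 0.95, -6.04 ± 0.55 and -7.74 ± 1.33 (SD, n = 5), each with overlap between groups.

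**Figure D4:**
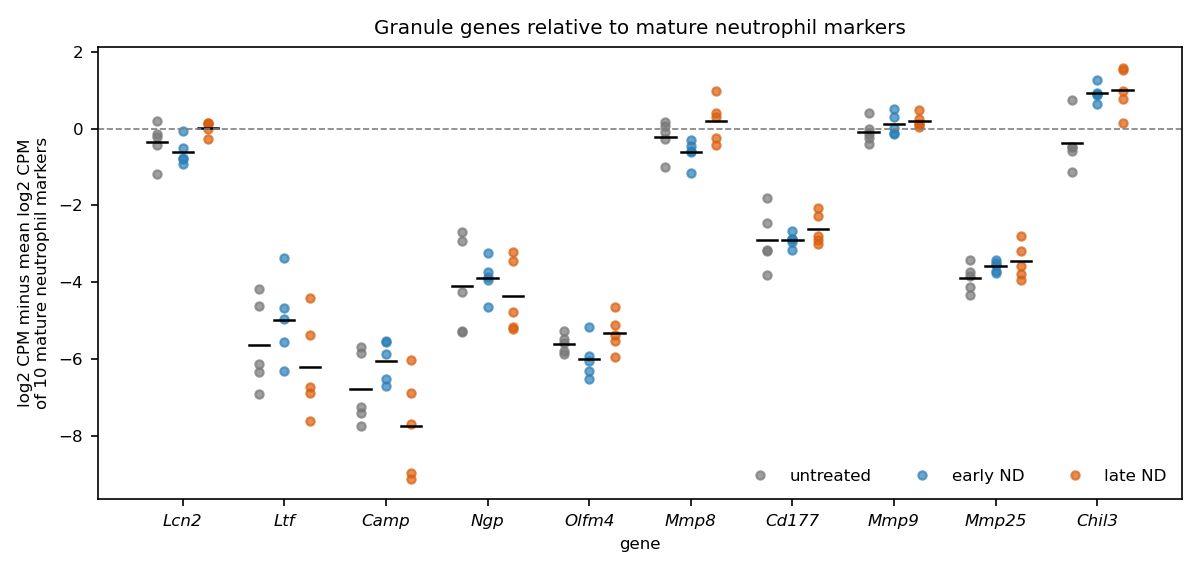
Log2 CPM of each granule gene minus the mean log2 CPM of 10 mature neutrophil markers in the same library, by group, with a bar at the mean. Chil3 averages -0.38 in untreated mice, 0.92 after early ND and 1.00 in late ND mice.

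Genes around the granule proteins were read from fixed lists, each described by its counts beside 2.5% of all genes called higher and 2.48% called lower between late and early ND. Of 15 further secondary and tertiary granule genes, 13 could be tested and 2 were higher: Cyba, a subunit of the NADPH oxidase, at a log2 fold change of 0.54 ± 0.14, and the integrin chain Itgam at 0.94 ± 0.25 (SE, adjusted p = 0.0475 and 0.0492, edgeR quasi-likelihood test). The median of the 13 was 0.88, and 67.41% of the exon bases of Itgam overlap Gm49368 on the same strand. Of 8 primary granule genes, 4 could be tested and 0 passed, with a median of 0.53 and values from 0.45 to 1.44. The highest was Prtn3 (named after its values were seen) at 1.44 ± 0.41 (SE, adjusted p = 0.0586, edgeR quasi-likelihood test). Elane, Ctsg and Ms4a3, which mark immature neutrophils, never had more than 10 counts in a library. Against untreated mice, 2 of the 4 tested were higher in late ND mice, beside 0.989% of all genes: Prtn3 at 1.61 ± 0.39 and the protease activator Ctsc at 0.74 ± 0.16 (SE, adjusted p = 0.0475 and 0.0293, edgeR quasi-likelihood test). Prtn3 had only 3 to 16 counts in an untreated library. Of the 8 transcription factors, 0 passed and the most abundant, Spi1 (PU.1) and Cebpb, had log2 fold changes of 0.79 and 0.80 between late and early ND. These were the largest of the 8, which ran from -0.03 to 0.80 with a median of 0.61. Of 11 exocytosis genes, 0 passed, with Rac2 at 0.60 and Snap23 at -0.20. Of 9 tested inhibitors, receptors and partners, Lrp1, a receptor that clears lactoferrin and matrix proteases, was higher at 1.37 ± 0.27, and Pecam1, a binding partner of Cd177, was lower at -0.53 ± 0.14 (SE, adjusted p = 0.0207 and 0.0454, edgeR quasi-likelihood test).

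**Figure D5:**
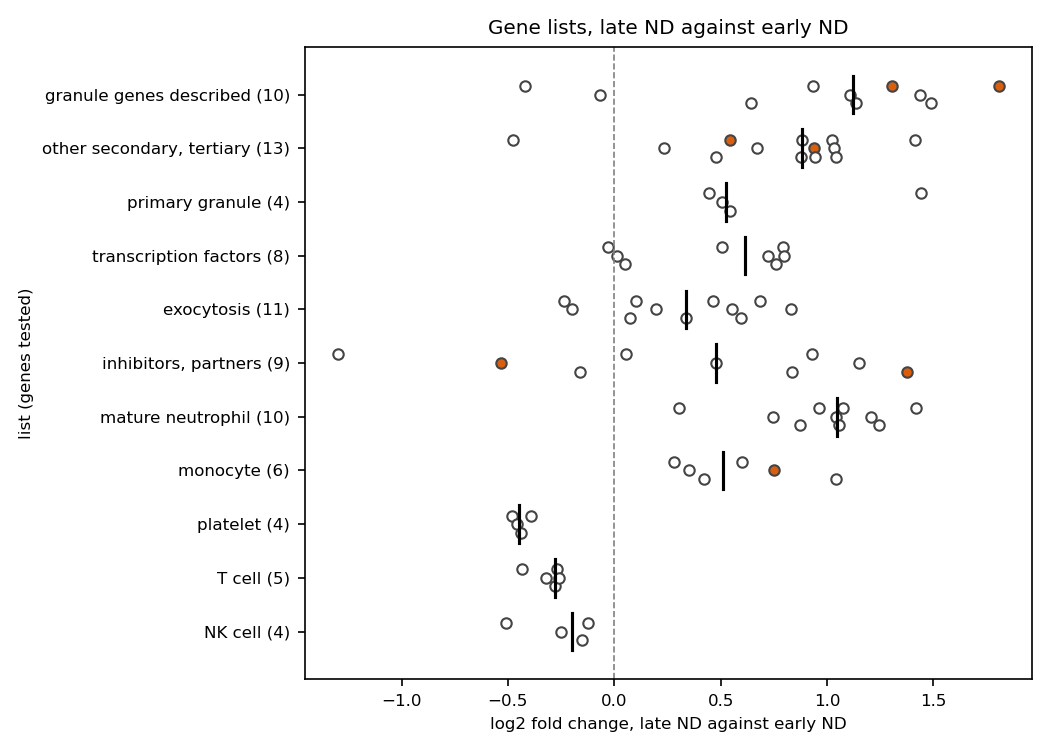
Log2 fold change between late and early ND of each tested gene in 11 lists, with a bar at the list's median and filled points for an adjusted p under 0.05. The medians are 1.12 for the granule genes described and 1.05 for mature neutrophil markers.

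Among red cell markers, Hbb-bt was lower in late than in early ND mice by a log2 fold change of -2.44 ± 0.60, Alas2 by -2.18 ± 0.44 and Slc4a1 by -2.75 ± 0.48 (SE, adjusted p from 0.0126 to 0.0392, edgeR quasi-likelihood test), and Alas2 and Slc4a1 were also lower than in untreated mice, where Hbb-bt did not pass (adjusted p = 0.0570, edgeR quasi-likelihood test). Not all red cell markers passed in either comparison. The part of this change in the granule results was not tested. Among the remaining lists, 1 of 6 monocyte markers (Csf1r, 0.75) was higher and 1 of 3 tested cell cycle genes (Birc5, -1.49) lower between late and early ND. None passed in that comparison among 4 platelet (Ppbp -0.48, Pf4 -0.39), 5 T cell (Lck -0.27, Cd247 -0.43), 4 NK cell (Gzma -0.25, Prf1 -0.15), 2 eosinophil and basophil (Siglecf 0.36, Cpa3 -0.48) and 5 skin gland genes (Scd3 0.84, Elovl3 0.27). Against untreated mice, 1 of 5 T cell genes was called lower in late ND mice, beside 2.01% of all genes. At an unadjusted p under 0.05 in edgeR's quasi-likelihood test, 5 of 5 were lower, beside 1122 of 13547 genes, with a median log2 fold change of -0.47. The part of this T cell difference in the Chil3 result was not tested. Skin epithelium genes, led by Krt5 and Krt10, summed to at most 4.64 CPM in a library and could not be tested. Without the 3 libraries poor in Rn18s-rs5, 0 genes of any list passed in either comparison with late ND.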

How the data were processed

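RNA of whole blood from 15 mice was sequenced as paired reads. Per the labels and the methods, the authors aligned reads to GRCm39 with STAR 2.7.9, sorted them with SAMtools 1.7 and counted them per gene with HTSeq 0.13.5. The deposited values are raw counts per Ensembl gene, and the annotation release and strand setting are not given in the sources used here. The labels also name mm10 beside GRCm39. Rows that name no gene made up 75.6% to 88.1% of the entries of a library and were left out. This share was 75.6% to 81.1% in late ND mice, 84.8% to 88.1% in early ND mice and 83.8% to 87.4% in untreated mice. The part of this difference in the granule results was not tested. Symbols were matched for 54749 of 55416 identifiers. Counts were fitted for each pair of groups with edgeR 4.0.16 in R 4.3.3 (filterByExpr, TMM, quasi-likelihood test, Benjamini-Hochberg adjustment over all genes tested, threshold 0.05). The fit was tested on simulated data. Levels are CPM with TMM over all 15 libraries, and log2 CPM used a prior count of 2. The TMM factors ran from 1.24 to 1.92 in late ND mice, from 0.50 to 1.17 in early ND mice and from 0.42 to 1.34 in untreated mice. Alternatives were DESeq2 1.42.0, library totals, other filters, all libraries in 1 fit, the replicate number as a block, covariates and left-out libraries. Of the list genes, 126 of 127 were found. Named genes were the 10 granule genes, list genes past the threshold between late and early ND or else the 2 most abundant, and the 10 most alike genes. The members and lists were chosen with earlier results of these data known. Results for some list genes are not reported.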

Additional observations from a re-analysis of the deposited data

Results flagged for a closer look

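In 4 of 30 groups of 5 values, the lowest log2 CPM of a granule gene lay farther from the others than the Dixon ratio of 0.71 allows, and chance flags about 1 in 20 groups. These were Lcn2 in untreated 3 (6.66), Mmp9 in untreated 3 (7.70), Ltf in early 4 (1.00) and Cd177 in late 2 (5.09). Untreated 3 was the lowest untreated mouse for all 10 granule genes, and late 2, a library poor in Rn18s-rs5, the lowest late ND mouse for all but Camp and Chil3.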

How the results depend on the processing

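Between late and early ND, 663 genes (333 higher, 330 lower) and 2 granule genes passed. Genes and granule genes passing were 1449 and 6 with DESeq2, 9060 (8923 higher, 137 lower) and 8 with library totals, 1282 (886 higher, 396 lower) and 6 with no filter on low counts, 0 and 0 with the neutrophil covariate and 4 and 0 without the libraries poor in Rn18s-rs5. Without hemoglobin genes and Rn18s-rs5, 1 granule gene passed. Leaving out 1 library gave 145 to 1610 genes and 0 to 7 granule genes. Between late ND and untreated, 406 genes (134 higher, 272 lower) and 1 granule gene passed. Genes passing were 808 with DESeq2, 7574 (7484 higher, 90 lower) with library totals, 211 (101 higher, 110 lower) with the neutrophil covariate and 0 without the libraries poor in Rn18s-rs5. Granule genes passing were 7 with library totals, 0 with all 15 libraries in 1 fit and 0 without the libraries poor in Rn18s-rs5. Leaving out 1 library gave 0 to 593 genes and 0 to 1 granule genes. Between early ND and untreated, 0 genes passed, with 1 under DESeq2, 3 under library totals and 0 with any library left out. The all-gene median stood at 0.86 and 0.91 under library totals in the comparisons with late ND, and at -0.15 and -0.11 under DESeq2. Same-numbered mice correlated at -0.17 to 0.46 between late and early ND, 0.03 to 0.58 between late ND and untreated, where mice 2, 4 and 5 were the closest match of their number, and -0.29 to 0.08 between early ND and untreated. In no comparison did this hold for every mouse, so the numbers were not read as pairs. With the replicate block, 673 genes and 3 granule genes passed between late and early ND, 607 and 1 between late ND and untreated, and 0 and 0 between early ND and untreated. Directions turned only for values that had not passed. Ltf turned to 0.74 with library totals, 0.49 without the libraries poor in Rn18s-rs5, and 0.17, 0.15, 0.11 and 0.03 without late 2, late 3, early 2 and early 5 between late and early ND, and to 0.48 with library totals against untreated. Camp turned to 0.40 with library totals and 0.0860 without the libraries poor in Rn18s-rs5 between late and early ND, and to 0.0519 with library totals against untreated. Ngp turned to -0.10 with the neutrophil covariate between late and early ND and, against untreated, to 0.53 with library totals, 0.0406 without the libraries poor in Rn18s-rs5 and 0.14 without untreated 4. Between early ND and untreated, the neutrophil covariate turned Lcn2 to 0.11, Ltf to 0.0135, Camp to 0.24, Mmp8 to 0.0311, Olfm4 to 0.0940 and Mmp25 to 0.33, and leaving out untreated 4 turned Ltf to 0.0520 and Camp to 0.17. With 1 library left out, Ltf also ran down to -0.60 between late and early ND, Ngp to -0.77 between late ND and untreated, and both Ltf and Camp to -0.67 between early ND and untreated. These lows keep the direction of the fits with all libraries. The cause of the turns was not tested.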
